A study of Aedes aegypti and Anopheles culicifacies with 47 samples.

Results

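The 100 genes described here were those of the malaria mosquito *Anopheles culicifacies* whose RNA stood most above its morning level in the brain at 6pm. They were chosen from read counts scaled to the summed counts of genes in each library, as CPM (counts per 1e6 reads in genes). Of 14486 genes that could be read in all 15 *Anopheles* count files, 8761 had a mean of at least 5 CPM over the brain libraries. In 1160 of those 8761 genes (13.2%) every brain library of 6pm lay above every brain library of 6am. These were ranked by log2 of the mean 6pm CPM plus 1 over the mean 6am CPM plus 1, and the 100 highest were kept, or 0.690% of the readable genes. In 3108 genes (35.5%) every 6pm library lay below every 6am library. These counts use CPM with no further scaling. With trimmed-mean (TMM) scaling, 1975 genes had every 6pm library above every 6am library, and the rule kept the same 100 members.

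*Anopheles culicifacies* is a night-biting vector of malaria in South Asia. In insects whose clock has been worked out, above all *Drosophila*, the transcription factors Clock and Cycle drive the genes period, timeless, vrille and Pdp1, whose RNA rises through the day toward evening. The Period and Timeless proteins then build up at night and shut down Clock and Cycle, and peripheral organs such as the antenna hold clocks of their own. The files identify genes by ACUA numbers and pair none with a name or description. The gene table used here covers *Aedes aegypti* only and matched 0 of them, so no member is given a name or role here, and it is not known which members, if any, are clock genes. The tissue labels could not be checked against marker genes for the same reason.

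The *Anopheles* samples were wild-type adult females, 5 to 6 days old, taken from one cohort raised in a light cycle with 12 h light and 12 h dark. Brain and pooled olfactory tissue (the antennae, maxillary palps, proboscis and labium) were dissected at 6am, 12pm, 6pm and 12am. For brain, 2 libraries of 6am, 3 of 12pm and 2 of 6pm were used, and its 12am samples were not analysed here. For olfactory tissue, 6am was represented by 1 library, 12pm by 3, and 6pm and 12am by 2 each. The series also lists *Aedes aegypti* samples, which were not used here. The labels do not say which strain was used, how many animals went into a library or whether lights came on at 6am. The design calls replicates biological, and the p-values measure the spread between these libraries. In bulk tissue, fewer cells of a type and less RNA per cell cannot be told apart.

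The libraries held 3278414 to 5534401 reads in genes in brain and 1193151 to 2992698 in olfactory tissue. The 2 olfactory 12am libraries stood apart from each other: their trimmed-mean (TMM) scaling factors were 1.56 and 0.80, the extremes of the tissue. Leaving out either one moved the calls for any clock time and for 6pm by more than any other library did, so counts are given with and without them. Of the 100 members, 17 lie near a damaged stretch of some file, where an altered digit could go unseen.

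In the brain, the log2 difference by which members were ranked ran from 6.17 at rank 1 to 2.09 at rank 100, with a median of 2.52. It was at least 3 in 25 members and at least 4 in 10. These values chose the members and are given as a description, with no test. The member ranked 100 had 206 and 50.9 CPM at 6am and 513 and 586 CPM at 6pm. The next gene, just outside, had 70.7 and 25.6 CPM at 6am and 213 and 196 CPM at 6pm, a log2 difference of 2.06. The limit at rank 100 therefore falls where neighbours barely differ.

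The member ranked 1, ACUA026092, had 7.21 and 1.83 CPM in the brain libraries of 6am. It had 23.5, 2.64 and 5.26 CPM at 12pm, and 275 and 516 CPM at 6pm. Its 12pm libraries overlapped those of 6am, and at noon its mean stood at 17.1% of the log2 distance from 6am to 6pm. The member ranked 2, ACUA024148, had 14.2 and 9.76 CPM at 6am, 149, 137 and 94.3 CPM at 12pm, and 1009 and 819 CPM at 6pm. Its 3 clock times did not overlap and stood in steps, each above the one before.

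**Figure D1:**
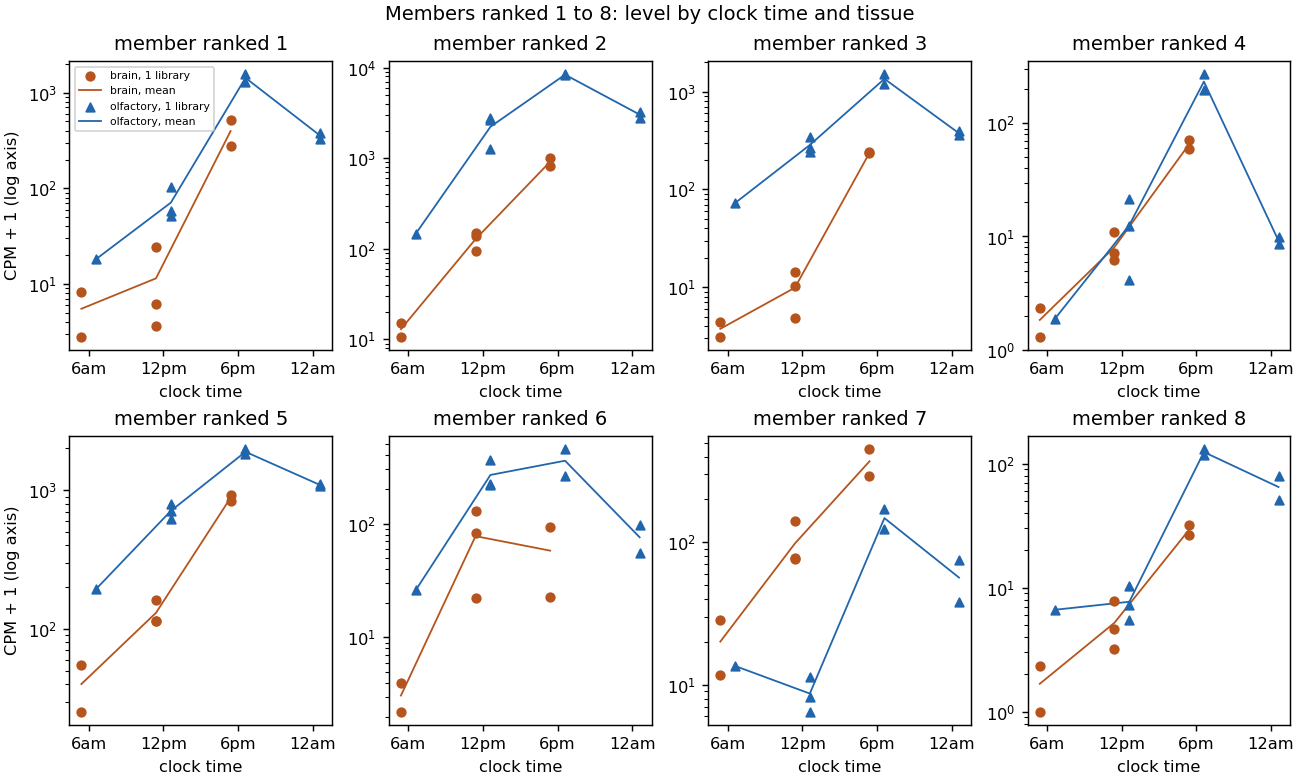
CPM + 1 (log axis) of the 8 highest-ranked members by clock time, with 1 point per library (circles for brain, triangles for olfactory tissue) and lines through the group means. In both tissues ACUA026092, ranked 1, is highest at 6pm, with 275 and 516 CPM in brain and 1558 and 1296 CPM in olfactory tissue.

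The rule asked for a gap between the brain libraries of 6am and 6pm and kept the largest ratios of means. Wide gaps in these same libraries follow from that choice, so their sizes are a description. In 96 members the lowest 6pm library lay more than 2-fold above the highest 6am library, and in 48 more than 4-fold, on the CPM plus 1 scale. The median of that gap was 3.89-fold. The smallest gap, 1.18-fold, belonged to the member ranked 39, which had 3.83 and 0.915 CPM at 6am and 38.1 and 4.70 CPM at 6pm. The higher of its evening libraries stood far above the lower, which barely exceeded the morning. The member ranked 9, which lies near a damaged stretch, had 0 counts at 6am against 129 and 9 counts in the 6pm libraries. With the 6am group set to a floor of 3 counts in all, it was at least 35.3-fold higher over both 6pm libraries, and at least 4.18-fold higher without 6pm replicate 2, which carries most of that bound. Such intervals and floors cover counting error only. Fewer than 10 counts were summed over the 6am libraries in 6 members.

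The 100 members took 0.400% and 0.202% of the reads in genes in the brain libraries of 6am. Their share was 0.891%, 0.753% and 0.943% at 12pm, and 2.17% and 1.93% at 6pm. No library of one clock time reached the range of another. The rule fixed the order of 6pm over 6am for every member, so these brain shares are a description. The members' median level was 9.45 CPM at 6am, 33.9 CPM at 12pm and 68.2 CPM at 6pm in brain, each a median over members of their group means.

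**Figure D2:**
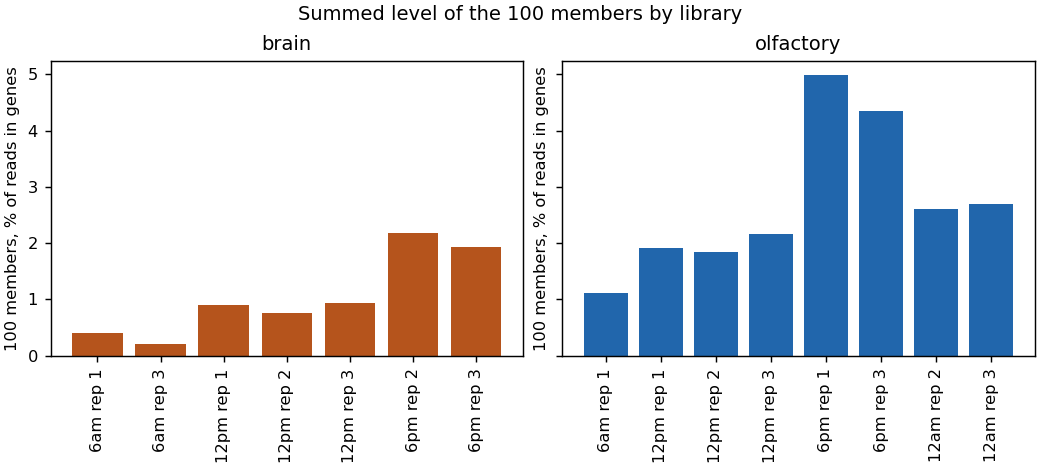
Share of all reads in genes taken by the 100 members (percent, axis from 0), with 1 bar per library, brain on the left and olfactory tissue on the right. Both tissues have their highest libraries at 6pm, 2.17% and 1.93% in brain and 4.98% and 4.35% in olfactory tissue. In brain the rule that chose the members set 6pm above 6am.

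At noon the median member stood near the middle of its brain rise, and members differed widely. Both ends of that rise come from the libraries that chose the members, so the place of noon is a description. The 12pm mean was placed on the span from the 6am mean to the 6pm mean, on the log2(CPM + 1) scale, and the median member stood at 49.2% of its rise. It stood between the 6am mean and 33.3% in 27 members, between 33.3% and 66.7% in 41, and above 66.7% but not past the 6pm mean in 17. In 3 members, ranked 71, 77 and 94, the 12pm mean lay below that of 6am. In 12 members, ranked 6, 16, 17, 18, 37, 42, 44, 48, 51, 82, 85 and 100, it lay above that of 6pm. In brain, then, those 12 had their highest mean at noon rather than in the evening.

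Every 12pm brain library lay above every 6am brain library in 71 members, against 9.88% of the 8761 genes. Every 6pm library lay above every 12pm library in 77 members, against 19.4% of genes, and below every one in 2 members, against 14.3%. All of these share the 6am or 6pm libraries that chose the members, so nothing is read from the gap to the background. The member ranked 82 had 256 and 205 CPM at 6am, then 814, 1051 and 1692 CPM at 12pm, and 1228 and 960.2 CPM at 6pm. Its noon and evening libraries overlapped. The member ranked 37 had 16.7 and 5.80 CPM at 6am, 98.2, 61.0 and 96.8 CPM at 12pm, and 81.3 and 82.0 CPM at 6pm. It had left its morning level by noon, and its evening libraries fell inside the noon range.

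**Figure D3:**
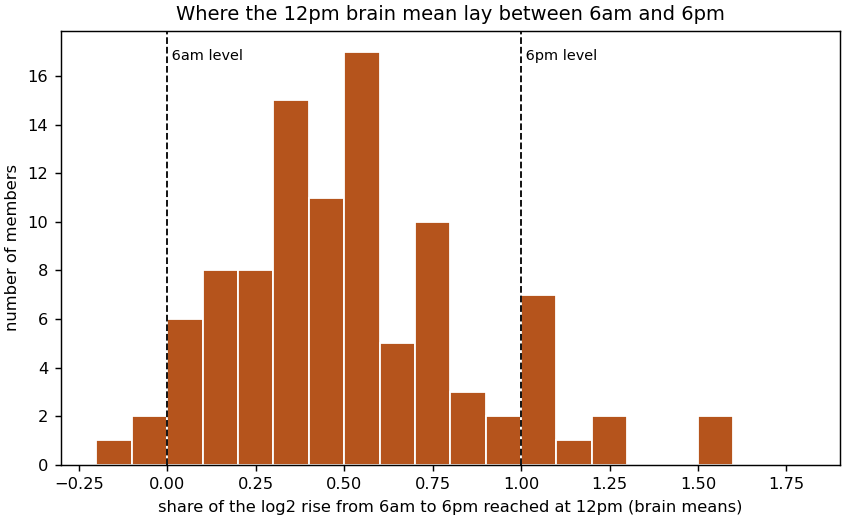
Histogram of the position of the brain 12pm mean on the span from the 6am mean (0) to the 6pm mean (1), on the log2(CPM + 1) scale, with the number of members on the y axis. Most members lie between the dashed lines of the morning and evening levels, 3 lie below the 6am mean and 12 above the 6pm mean.

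Agreement between brain libraries of one clock time was poorer at 6am than at 6pm. The higher of the 6am libraries exceeded the lower by a median of 1.98-fold over the members (CPM plus 1), and by more than 2-fold in 49 of them. At 12pm the median was 1.63-fold with 31 members above 2-fold, and at 6pm 1.20-fold with 9 above 2-fold. Over the 8761 genes the shares above 2-fold were 7.15%, 8.20% and 1.02%. The 6am difference had a direction: replicate 1 was above replicate 3 in 90 members, but in 44.4% of the 8761 genes. Replicate 3 was the lowest of all brain libraries for 84 members. The rule used the 6am and 6pm libraries and favoured a low 6am mean, which bears on these spreads and on this direction. They are a description, and nothing is read from their gap to the 8761 genes. Without replicate 1 of 6am the rule would keep 65 of the 100 members, and without any other single brain library 84 to 99. In 80 members the place held in at least 6 of the 7 sets made by leaving out 1 brain library.

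A few members differed as much between libraries of one clock time as between clock times. The member ranked 16 had 2.70 and 0.610 CPM at 6am, 60.6, 3.84 and 272 CPM at 12pm, and 49.2 and 5.60 CPM at 6pm. The member ranked 17 had 2.25 and 0.915 CPM at 6am, 48.8, 1.20 and 210.2 CPM at 12pm, and 46.5 and 5.24 CPM at 6pm. Both were high in the same 12pm library (replicate 3) and in the same 6pm library (replicate 2), and in both the 12pm libraries overlapped those of 6pm. In olfactory tissue the member ranked 16 had 173, 86.9 and 627 CPM at 12pm, and that ranked 17 had 365, 273 and 2142 CPM. There too replicate 3 of 12pm was the highest of its group. In all, 10 members spread more than 4-fold between the 12pm brain libraries, those ranked 1, 6, 9, 16, 17, 21, 33, 39, 48 and 63.

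The olfactory libraries had no part in choosing the members, so the same genes could be tested there. All 100 passed the low-count filter, which looked at olfactory counts only, and were tested among 10892 genes with edgeR's quasi-likelihood test, with p-values adjusted by Benjamini-Hochberg over all 10892. In this tissue, 15 members differed between clock times at an adjusted p under 0.05, and all 15 had their highest mean at 6pm. The background was 0.615% of the genes tested. The called members rank 1 to 8, 14, 15, 20, 33, 50, 63 and 94 in brain. Those ranked 3, 4, 14, 15, 20 and 94 are among the members near a damaged stretch. With genes near damage left out, 7 members were called, against 0.530% of genes. Without replicate 1 or 3 of 6pm the count was 5 or 7, against 0.154% or 0.218% of genes. Without replicate 2 or 3 of 12am it was 51 or 65, and the share of all genes called was also higher, at 4.23% or 11.7%. With both 12am libraries left out it was 50, against 4.12%.

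At 6pm against 12pm, 9 members rose in olfactory tissue, against 0.156% of genes, and 0 fell, against 0.376%. The members supplied 52.9% of the 17 genes called higher at 6pm than at 12pm in this tissue. At an unadjusted p under 0.05, 49 members were higher and 1 was lower, against 3.42% and 3.77% of genes. DESeq2 called 28 higher and 0 lower, against 1.56% of genes in either direction. Over all members the median log2 change was 1.04 and 84 lay above 0, while the median over all genes tested was -0.06. The count was 14 without the 6am library and 4 without 6pm replicate 1, against 0.734% and 0.0635% of genes called in either direction. It was 40 without 12am replicate 2, 30 without 12am replicate 3 (29 higher and 1 lower) and 38 without both, against 2.79%, 2.16% and 2.71%.

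In olfactory tissue ACUA026092 had 17.3 CPM in the 6am library and 103, 50.8 and 56.7 CPM at 12pm. It had 1558 and 1296 CPM at 6pm, and 328 and 382 CPM at 12am. All 4 clock times were apart, with 6pm far above the rest and 12am next. It had the largest rise of any called member from 12pm to 6pm, a log2 change of 4.46 (SE 0.53, edgeR adjusted p = 0.000114).

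The member ranked 4, ACUA014010, lies near a damaged stretch. In brain it had 1.35 and 0.305 CPM at 6am, 5.18, 9.85 and 6.09 CPM at 12pm, and 70.2 and 58.2 CPM at 6pm. In olfactory tissue it had 0.865 CPM at 6am, which is 2 counts, and 11.3, 20.4 and 3.13 CPM at 12pm. It then had 271 and 195 CPM at 6pm, and 7.54 and 8.82 CPM at 12am. The evening libraries stood alone in olfactory tissue, since the 12am libraries lay within the 12pm range. The rise from 12pm to 6pm was 4.36 on the log2 scale (SE 0.62, edgeR adjusted p = 0.0011), and it did not pass without 6pm replicate 1 (adjusted p = 0.0811).

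The other members called at 6pm against 12pm rank 3, 7, 8, 33, 36, 63 and 94. Those ranked 3 and 94 are among the members near a damaged stretch. The member ranked 33 had 97.3 CPM at 6am, 107, 87.9 and 125 CPM at 12pm, 1089 and 973 CPM at 6pm, and 479 and 476 CPM at 12am in olfactory tissue. The member ranked 63 had 889 CPM at 6am, 567, 609.8 and 616 CPM at 12pm, 4373 and 2874 CPM at 6pm, and 2224 and 2635 CPM at 12am. In both, morning and noon lay close together and the night libraries stayed above them.

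Only 1 library stands for 6am, so its spread was not measured and was assumed to be that of the other clock times. At 6pm against 6am, 13 members were called higher under that assumption, against 0.184% of genes, and 0 lower, against 0.174%. They rank 1 to 8, 14, 20, 33, 46 and 58, and made up 65.0% of the 20 genes called higher. At an unadjusted p under 0.05, 58 were higher and 0 lower, against 4.39% and 5.28% of genes. DESeq2 called 47 higher and 0 lower, against 2.44% in either direction. The members' median log2 change was 1.93, with 94 above 0, and that of all genes tested was 0.04. The test called 0 members without either 6pm library (46 or 52 at an unadjusted p under 0.05), and 49 or 45 without 12am replicate 2 or 3, against 4.71% or 3.61% of genes. Without both 12am libraries it called 49, against 4.64%.

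The largest differences from 6am were again those of ACUA014010 and ACUA026092. For ACUA014010 the ratio of summed counts, 587 at 6pm against 2 at 6am, was 271 with a 95% counting interval of 74.7 to 2244, each count taken per read in genes (edgeR adjusted p = 0.00577). For ACUA026092 the log2 change was 6.82 (SE 0.97, edgeR adjusted p = 0.00212). ACUA024148 had 146 CPM at 6am, 2787, 2618 and 1259 CPM at 12pm, 8454 and 8265 CPM at 6pm, and 2794 and 3263 CPM at 12am in olfactory tissue. Its log2 change from 6am was 6.30 (SE 0.93, edgeR adjusted p = 0.00224). Its noon libraries were already far above the morning one, and its log2 change from 12pm to 6pm, 1.99 (SE 0.48), did not pass (edgeR adjusted p = 0.0782).

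**Figure D4:**
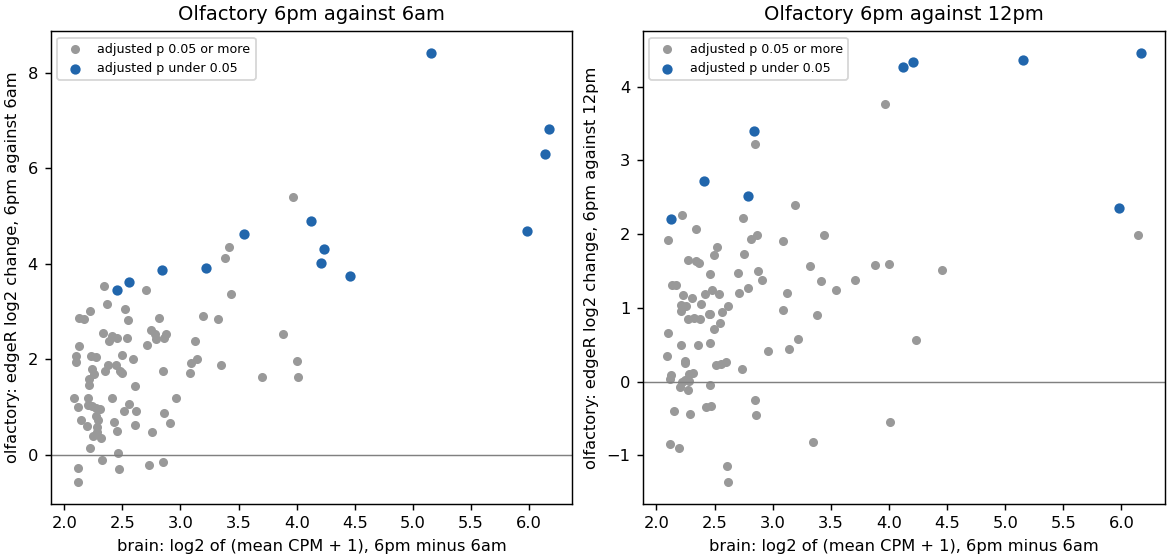
Log2 difference of each member from 6am to 6pm in brain (CPM plus 1, the ranking value) on the x axes, against its edgeR log2 change in olfactory tissue from 6am to 6pm (left) and from 12pm to 6pm (right). Of the 100 points, 94 lie above 0 on the left and 84 on the right, and the 13 and 9 called members are in blue.

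The size of the olfactory change went with rank in brain. Over members ranked 1 to 25, 26 to 50, 51 to 75 and 76 to 100, the median olfactory log2 change from 6am to 6pm was 3.74, 2.30, 1.70 and 1.19. From 12pm to 6pm the medians were 1.57, 1.21, 0.87 and 0.50. The members called higher at 6pm than at 6am numbered 10, 2, 1 and 0 in the same order. The brain and olfactory libraries are different libraries, and members are not independent of each other, so this order is a description.

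The members were also grouped by their noon level in brain. Of the 3 members whose brain mean at noon lay below that of 6am, 1 was called higher at 6pm than at 12pm in olfactory tissue, with a median log2 change of 0.84 over the 3. Among the 27 members between the 6am mean and 33.3% of their rise at noon, 5 were called higher, with a median of 1.71. Among the 41 in the middle class 3 were called, with a median of 1.18. Of the 17 above 66.7% and the 12 whose brain mean was highest at noon, 0 were called (edgeR quasi-likelihood), with medians of 0.58 and 0.30. The medians do not follow a single order over the 5 classes, and whether the classes differ was not tested.

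In CPM, without TMM scaling or a fitted model, the library values gave the same direction. Both olfactory 6pm libraries lay above all 3 of 12pm in 56 members, against 13.4% of the genes tested, and below all 3 in 7, against 24.2%. Both lay above the 6am library in 85 members, against 25.8%, and below it in 10, against 55.2%. In 34 members both 6pm libraries lay above all 6 other olfactory libraries, against 1.83% of genes. The mean was highest at 6pm in 64 members (8.1% of genes), at 12am in 15 (42.5%), at 12pm in 14 (10.8%) and at 6am in 7 (38.6%). It was lowest at 6am in 61 members (25.4%), at 12am in 21 (9.79%), at 12pm in 17 (20.9%) and at 6pm in 1 (43.9%). These shares of genes also lack TMM scaling and are shifted by it. In fits with no scaling, the median log2 change of all genes was -0.41 from 6am to 6pm and 0.55 from 6pm to 12am. With TMM these medians were 0.04 and 0.15.

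By midnight the members' olfactory levels were mostly below those of 6pm. The median log2 change from 6pm to 12am was -0.89 with 88 members below 0, while that of all genes tested was 0.15. Both 12am libraries lay below both 6pm libraries in 52 members, against 5.02% of genes, and above both in 5, against 23.8%. The test called 1 member lower, against 0.00918% of genes, and 0 higher, against 0.0%. At an unadjusted p under 0.05, 33 were lower and 0 higher, against 1.35% and 1.20% of genes. DESeq2 called 15 lower and 0 higher, against 0.367% in either direction. The called member was ACUA014010, whose log2 change was -5.11 (SE 0.79, edgeR adjusted p = 0.0348). Its 12am libraries held 22 counts against 587 at 6pm, and the call was lost under 8 of its 14 alternatives, with adjusted p up to 0.590. Those 8 include leaving out the 6am library, either 6pm library or either 12am library. The number of members called was then 0 without the 6am library, 6pm replicate 1 or 6pm replicate 3. The members' median log2 change was -0.84, -0.79 and -0.93 in those fits. The share of all genes called was 0.0% each time. The number was 2 without 12am replicate 3, against 0.0271% of genes.

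Against noon, the midnight level had no common direction. The median log2 change from 12pm to 12am was 0.08 with 51 members above 0, and that of all genes was 0.09. Both 12am libraries lay above all 12pm libraries in 37 members, against 9.33% of genes, and below all in 22, against 11.3%. The test called 2 members higher, against 0.0918% of genes, and 0 lower, against 0.0551%. At an unadjusted p under 0.05, 14 were higher and 16 lower, against 4.00% and 3.35% of genes. DESeq2 called 8 higher and 1 lower, against 0.826% in either direction. Without 12am replicate 3, 11 were called higher and 19 lower, while 17.0% of all genes were called. Without 12am replicate 2, 7 were higher and 1 lower, against 0.404% of genes, and without either 6pm library the count was 0. It was 5 without the 6am library, against 0.237% of genes, and 1 without 12pm replicate 1 or 3, against 0.162% or 0.134%. Without 6pm replicate 1 or 3 the share of all genes called was 0.0363% or 0.0364%.

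The members that rose from 12pm to 12am were ACUA025959, ranked 8, and ACUA025003, ranked 7. In olfactory tissue ACUA025959 had 5.62 CPM at 6am, 4.44, 9.36 and 6.26 CPM at 12pm, 116 and 129 CPM at 6pm, and 49.4 and 78.0 CPM at 12am. It was low by day and high in both evening and night libraries. The change from 12pm to 12am was 3.15 on the log2 scale (SE 0.54, edgeR adjusted p = 0.0118), and that from 12pm to 6pm was 4.27 (SE 0.55, edgeR adjusted p = 0.000199). The first call was lost without either 6pm library, at adjusted p of 0.0714 and 0.0654.

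ACUA025003 had 12.5 CPM at 6am, 7.18, 10.4 and 5.48 CPM at 12pm, 170.2 and 124 CPM at 6pm, and 73.8 and 37.3 CPM at 12am in olfactory tissue. Its evening libraries stood highest and its night libraries lay between those and the day. From 12pm it rose by 4.33 to 6pm (SE 0.50, edgeR adjusted p = 9.49e-05) and by 2.49 to 12am (SE 0.48, edgeR adjusted p = 0.0312), on the log2 scale. The change to 12am lost its call under 5 of 15 alternatives, among them leaving out 12pm replicate 1 or 3 or either 6pm library, with adjusted p up to 0.123. In brain the levels differed in shape: 27.5 and 10.7 CPM at 6am, 140.1, 75.0 and 76.3 CPM at 12pm, and 449 and 290.2 CPM at 6pm. There noon already lay above morning, whereas in olfactory tissue it did not. The olfactory morning is 1 library with 29 counts of this gene, and the rule favoured a low 6am level in brain. This difference between the tissues was not tested.

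**Figure D5:**
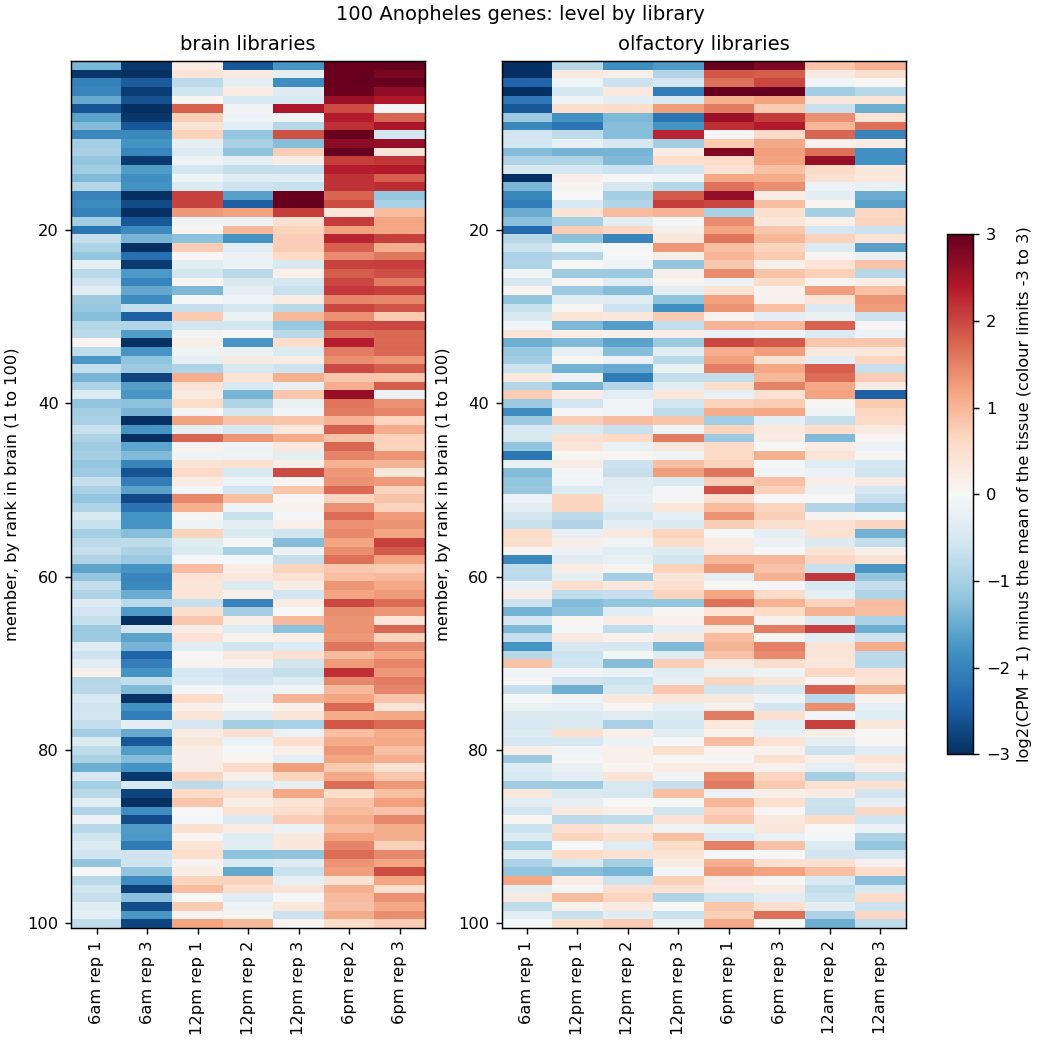
Level of each of the 100 members (rows, by rank in brain) in each of the 15 libraries (columns), as log2(CPM + 1) minus the member's mean over the libraries of the same tissue (red higher, blue lower). In brain the rule that chose the rows set both 6pm columns above both 6am columns. In olfactory tissue both 6pm columns lie above all others in 34 rows, and 64 members have their highest mean at 6pm.

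The members' share of reads in genes in olfactory tissue was 1.11% in the 6am library and 1.91%, 1.84% and 2.15% at 12pm. It was 4.98% and 4.35% at 6pm, and 2.60% and 2.69% at 12am. By this share the 12am libraries lay between noon and evening. The share is a sum, in which members with many reads weigh most. The members' median level was 42.4 CPM at 6am, 71.3 CPM at 12pm, 104 CPM at 6pm and 61.5 CPM at 12am, below noon. The share of reads outside annotated genes did not follow the order of the members' share. It was 55.4% at 6am, 53.8 to 59.0% at 12pm, 54.9 and 62.1% at 6pm and 62.0 and 69.2% at 12am. In brain it was 64.5 and 68.8% at 6am, 56.0 to 62.1% at 12pm and 57.2 and 61.5% at 6pm, highest at 6am, where the members were lowest. Its part in the brain values was not tested.

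Many members had higher levels in olfactory tissue than in brain. At 6am 85 of them had a higher CPM in olfactory tissue than in brain, at 12pm 63 and at 6pm 53. The shares of the 8761 genes were 26.0%, 20.5% and 18.5%, and the olfactory 6am level is that of 1 library. The median log2 difference of olfactory tissue from brain was 1.42, 0.58 and 0.09 at those times. Over the 8761 genes expressed in brain it was -0.87, -1.10 and -1.35. The rule asked for a low 6am brain level and a high 6pm one, which bears on these differences, so they are a description. The member ranked 94, which lies near a damaged stretch, was at the olfactory extreme, with a log2 difference of 8.31 at 12pm. It had 5.41 and 1.83 CPM at 6am and 14.4 and 23.9 CPM at 6pm in brain, against 1126 CPM at 6am and 6153 and 5803 CPM at 6pm in olfactory tissue. From 12pm to 6pm it rose in olfactory tissue by 2.21 on the log2 scale (SE 0.45, edgeR adjusted p = 0.0184).

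At the brain extreme, the member ranked 37 had a log2 difference of -5.15 at 12pm and the member ranked 34 one of -4.60. The member ranked 34 had 284 and 141 CPM at 6am, 436, 427 and 361 CPM at 12pm and 1415 and 1582 CPM at 6pm in brain. In olfactory tissue it had 10.4 CPM at 6am, 19.5, 9.36 and 18.8 CPM at 12pm, 52.4 and 58.9 CPM at 6pm and 30.2 and 30.5 CPM at 12am. Its evening libraries were the highest in both tissues, at levels far apart.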

How the data were processed

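For each library the authors deposited unnormalized read counts, 1 line per gene, laid out as htseq-count does. STAR, HTSeq, FastQC and bcl2fastq are named in the submitters' processing notes, without versions. Genome build, annotation and strand setting: not given in the sources used here. Antisense or overlapping genes, and genes with near-identical copies, therefore have uncertain counts. Lines naming no gene took 57.6 to 73.7% of reads per library and were left out of totals and tests. Text was overwritten in 27 stretches of 14 of the 15 files, so 243 of 14729 genes (1.65%) could not be read in 1 file and were dropped. CPM was the count over the summed counts of genes, times 1e6.

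Olfactory clock times were fitted in edgeR 4.0.16 (R 4.3.3) with TMM scaling, filterByExpr and the robust quasi-likelihood test, 8 libraries in 1 fit with 4 residual degrees of freedom, adjusted by Benjamini-Hochberg with a threshold of 0.05. Groups came from the sample titles. Each SE was obtained by dividing the log2 change by the root of its F value. Ratios of summed counts have exact 95% intervals. Alternatives were DESeq2 1.42.0, DESeq2 size factors, no scaling, no filter, a mean of at least 50 counts, a replicate term, genes near damage left out and each library left out; leaving out both 12am libraries was chosen after seeing the data. The members and the tests were chosen with earlier results of these data known. With no gene names, IDs are given for the 2 members of highest rank in brain. In each olfactory contrast they are given for at most 2 called members per direction with the largest change, a mean of at least 5 CPM and no overlap between the libraries of both times. Other members are given by rank, and those described singly were chosen after their values were seen. Other tools were Python 3.11.15 with pandas 2.3.3, numpy 2.4.6, matplotlib 3.10.9 and scipy 1.17.1.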

Additional observations from a re-analysis of the deposited data

Results flagged for a closer look

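In 10 members the brain and the olfactory libraries moved opposite ways from 6am to 6pm in unscaled CPM: both brain 6pm libraries lay above both of 6am, while both olfactory 6pm libraries lay below the olfactory 6am library. On the log2(CPM + 1) scale the olfactory difference was -0.60 for the member ranked 32, -0.61 for 39, -0.68 for 55, -0.42 for 56 and -0.47 for 70. It was -0.11 for 71, -0.054 for 80, -0.32 for 85, -1.02 for 95 and -0.72 for 97. The difference between the tissues was not tested, and only 1 olfactory library stands for 6am. Of all genes tested in olfactory tissue, 55.2% lay below the 6am library in the same way. With TMM scaling the log2 changes of these 10 ran from -0.58 to 0.40, 6 of them below 0, and 0 were called (edgeR adjusted p from 0.760 to 0.984, 0 of 10 at an unadjusted p under 0.05). The member ranked 32 had 732 CPM in the olfactory 6am library and 477 and 489 CPM at 6pm, against 60.4 and 31.7 CPM at 6am and 329 and 347 CPM at 6pm in brain.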

How the results depend on the processing

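The number of members called depended strongly on the model and on single olfactory libraries, as did the share of all genes called (0.154 to 11.7% for any clock time), while the medians of the 6pm contrasts kept their sign under all alternatives. Those medians ran from 0.90 to 1.28 against 12pm and from 1.46 to 2.11 against 6am (log2). In what follows, the share of all genes called in either direction is in brackets. The number differing between clock times, 15 (0.615%), was 45 with DESeq2 (2.56%), 25 with no filter (0.980%) and 32 at a mean of 50 counts (4.83%). It was 7 without genes near damage (0.530%), 50 without both 12am libraries (4.12%), and 5 to 65 with 1 library left out (0.154 to 11.7%). At 6pm against 12pm the 9 (0.533%) became 28 with DESeq2 (1.56%), 16 with its size factors (0.643%), 19 with no scaling (1.35%) and 29 at 50 counts (4.29%). The count was 5 without genes near damage (0.477%), 38 without both 12am libraries (2.71%), and 4 to 40 with 1 library left out (0.0635 to 2.79%). At 6pm against 6am the 13 (0.358%) became 47 with DESeq2 (2.44%), 37 at 50 counts (7.85%) and 49 without both 12am libraries (4.64%). With 1 library left out the count was 0 to 49 (0.0 to 4.71%). At 12am against 12pm the 2 (0.147%) became 9 with DESeq2 (0.826%), and 5 with its size factors, no scaling or 50 counts (0.202%, 0.422% and 1.18%). With 1 library left out the count was 0 to 30 (0.0363 to 17.0%). It was 0 without 6pm replicate 1 (0.0363%) or 6pm replicate 3 (0.0364%). At 12am against 6pm the 1 (0.00918%) became 15 with DESeq2 (0.367%) and 2 with no filter (0.0668%). It was 0 with size factors (0.0%), no scaling (0.00918%) or without genes near damage (0.0%). With 1 library left out the count was 0 to 2 (0.0 to 0.187%). With no scaling the median of all genes from 6am to 6pm moved from 0.04 to -0.41, and that of the members from 1.93 to 1.46. From 12pm to 6pm these went to -0.17 and 0.90, from 12pm to 12am to 0.33 and 0.24, and from 6pm to 12am to 0.55 and -0.60. At 50 counts only 74 members and 4240 genes were tested, and without genes near damage 83 members; the cause of the other changes was not tested. The median from 12pm to 12am turned from 0.08 to -0.46 without 12am replicate 3, the lowest of the values with 1 library left out, of which the highest was 0.22.

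With the replicate number as a block the counts were 8 at any clock time (0.450% of all genes called) and 6 at 6pm against 12pm (0.422%). They were 8 at 6pm against 6am (0.257%), 1 at 12am against 12pm (0.0734%) and 1 at 12am against 6pm (0.0184%). The deviations of same-numbered olfactory libraries had correlations from -0.58 to 0.19, against -0.43 to 0.58 for differently numbered ones. In brain the same-numbered values ran from -0.10 to 0.41. Where a clock time has a pair of libraries, their deviations mirror each other. These values therefore cannot decide whether the numbers pair the samples. The member list kept 83 to 100 members under other scalings, pseudocounts, minima and without genes near damage, and 65 without brain 6am replicate 1 (84 to 99 without another). The 80 members held in at least 6 of 7 such sets gave 8 calls against 12pm and 13 against 6am. Depth limits members with few counts, above all those at or near 0 at 6am.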
